A study of Mus musculus with 8 samples.

Results

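The genes described here encode the 2 ligands of PD-1 and 7 coinhibitory receptors of lymphocytes, 9 genes of the 15138 tested. A gene was represented by the array probe whose accession is one of its RefSeq transcripts, and each of the 9 had 1 such probe, printed as 1 spot. All 9 probes were well above background on all 8 arrays and passed the filter on dim probes, and none was marked as an outlier. Messenger RNA was measured on one-colour arrays in T cells from mouse spleen, with 4 groups of 2 arrays. Wild-type (WT) C57BL/6 mice (Lsp1+/+) were compared with mice lacking Lsp1 (KO, Lsp1-/-) that had been crossed back to C57BL/6 to generation N10, and the mice were 8 to 12 weeks old and of matched age and sex. Lsp1 encodes leukocyte-specific protein 1, which binds F-actin, and the labels name no cell type to which its loss is limited. Each genotype was measured in medium and after 6 h with antibodies to CD3 and CD28, which trigger the T cell receptor complex and a costimulatory receptor. The method of T cell purification is not stated in the labels. Nor do they say whether both arrays of a group come from separate mice, so the p-values reflect the spread among these arrays only, and that spread may be technical.

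Coinhibitory receptors are membrane proteins that dampen signalling through the T cell receptor and CD28. PD-1 (Pdcd1), BTLA and TIGIT carry tyrosine motifs in their tails that recruit phosphatases. CTLA-4 competes with CD28 for the same ligands, and LAG-3 binds MHC class II. Several of these receptors are absent or scarce on resting naive T cells and appear after activation, and lasting expression of many together is known from exhausted T cells. PD-L1 (Cd274) is made by many cell types and is a classical target of interferon-gamma, whereas PD-L2 (Pdcd1lg2) is known mostly from dendritic cells, macrophages and some B cells.

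Values below are log2 of the processed signal minus the 75th percentile of that array, so that 0 is the level of that percentile. Levels are compared between groups of the same gene only, since probes differ in brightness. Sums over a gene list weigh its brightest probes most and can hide opposite moves of its genes. Errors after ± are standard errors of the limma fit with n = 2 arrays per group unless SD is written, and a gene is called at a Benjamini-Hochberg adjusted p below 0.05 over all genes tested. Lsp1 itself, the check of the labels, lay between 6.99 and 7.48 on the WT arrays and between 3.48 and 3.69 on the KO arrays. All 12 genes of a T cell marker list were well above background on every array, so the defining T cell markers were present throughout, and 0 were called on stimulation. The arrays of the 2 KO samples numbered 2, in medium and stimulated, stood apart: the median of 10 neutrophil genes was 4.41 and 3.75 above the WT medium mean on them, against -1.16 to 0.34 on the other arrays, and that of 9 erythroid and platelet genes 1.76 and 2.01, against -0.71 to 0.47. Leaving both out keeps 1 KO array per condition, which is assumed to vary like the WT arrays. Over all genes, fewer were then called in KO and more in WT cells, so a changed call does not single out a gene. For the 9 genes and for the calls of each gene list, results without these arrays are given where they differed in a call or a sign or moved a value of the 9 by over 1.5 times. Of the T cell list, Cd3g was then called lower in WT cells.

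Stimulation raised 5 of the 9 genes in WT cells and the same 5 in KO cells, namely Cd274, Pdcd1lg2, Btla, Cd160 and Lag3, and 0 were called lower (limma). At an unadjusted p below 0.05 there were 6 higher and 0 lower in each genotype, the sixth being Ctla4, where 29.5% of all genes in WT and 25.4% in KO cells reached that p in either direction. At the adjusted threshold, over all genes 6.42% were called higher and 3.84% lower in WT cells, and 5.85% higher and 2.27% lower in KO cells. These shares also stand beside the counts called on stimulation in every gene list below, with all arrays kept. The median response of the 9 genes was 0.81 in WT and 0.80 in KO cells, beside -0.09 and -0.08 over all genes tested. In 6 of the 9 genes (the 5 and Ctla4) all 4 stimulated arrays lay above all 4 medium arrays, a pattern shown by 15.6% of all genes.

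**Figure D1:**
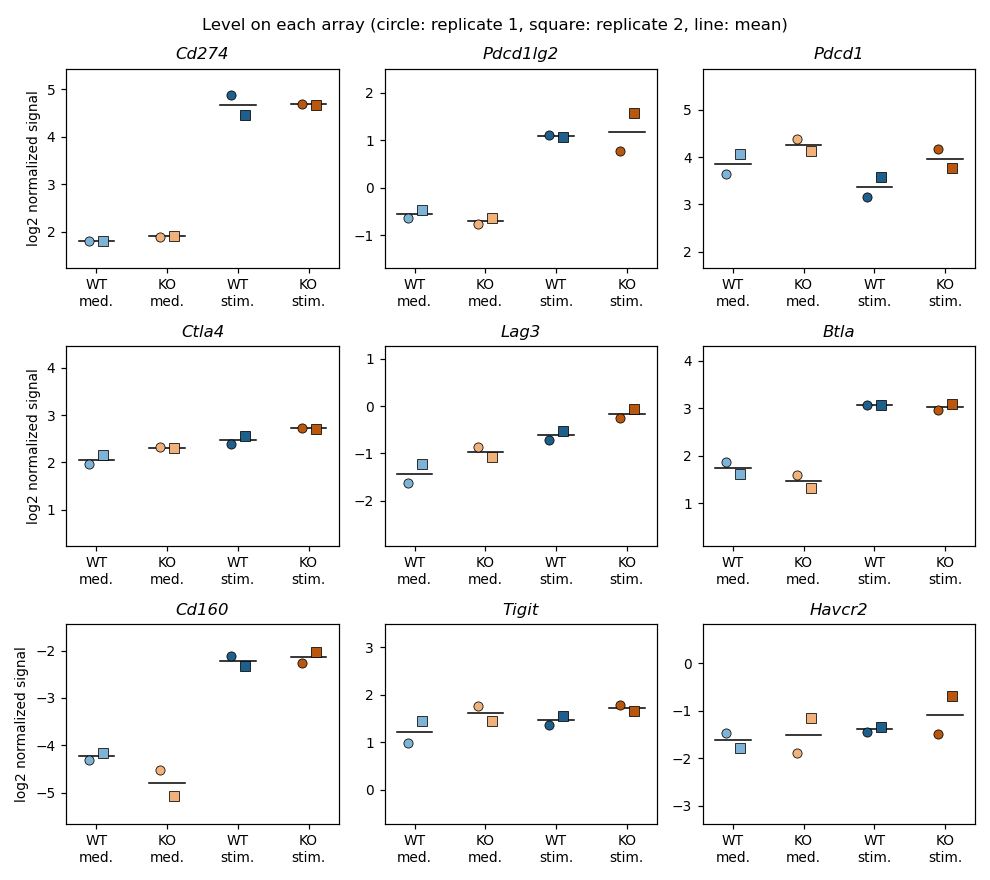
Normalized log2 signal of the 9 genes (y axis, of the same height in every panel) on each array of the 4 groups (x axis; WT and KO cells in medium and stimulated with anti-CD3/CD28), with circles for replicate 1, squares for replicate 2 and a line at the group mean. Cd274, Pdcd1lg2, Btla and Cd160 show a step between medium and stimulated arrays, whereas the 4 groups of Pdcd1, Tigit and Havcr2 lie close together.

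The ligand gene Cd274 gave the largest response of the 9 in WT cells. Its level was 1.80 and 1.79 in WT medium, 1.89 and 1.90 in KO medium, 4.88 and 4.46 in stimulated WT and 4.69 and 4.67 in stimulated KO cells. All stimulated arrays were high and all medium arrays low, and the KO arrays numbered 2 lay beside their partners. The difference was 2.88 ± 0.15 in WT cells, a 7.34-fold rise with a 95% interval of 5.67 to 9.51 (adjusted p = 6.05e-04), and 2.78 ± 0.15 in KO cells, a 6.89-fold rise with an interval of 5.32 to 8.93 (adjusted p = 8.79e-04). Only 0.634% of all genes moved as far in either direction in WT cells and 0.720% in KO cells. The call held in both genotypes in all 19 alternative analyses, with values of 2.67 to 3.08 in WT and 2.76 to 2.80 in KO cells. Cd274 was the 1 gene of the 9 for which that was so.

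Pdcd1lg2, the gene of the second ligand, also rose in both genotypes. It read -0.65 and -0.47 in WT medium, -0.76 and -0.64 in KO medium, 1.11 and 1.06 in stimulated WT and 0.77 and 1.58 in stimulated KO cells. Stimulated and medium arrays did not overlap in either genotype, whereas WT and KO arrays overlapped in each condition. The widest gap within a group was between the stimulated KO arrays, of which the one numbered 2 was the highest of all 8. The rise was 1.65 ± 0.26 in WT cells (3.13-fold, adjusted p = 0.0177) and 1.87 ± 0.26 in KO cells (3.67-fold, adjusted p = 0.0119). Without both KO arrays numbered 2 the KO value was 1.53 (adjusted p = 0.0309). The WT call was lost without any 1 of the 4 WT arrays (adjusted p between 0.0644 and 0.125). The KO call was lost without KO medium replicate 1 or 2 (adjusted p = 0.0608 and 0.0629), and when the KO arrays were fitted alone (adjusted p = 0.118). The response of Cd274 was larger than that of Pdcd1lg2 on the log2 scale, with 95% intervals of 2.50 to 3.25 against 1.02 to 2.28 in WT and 2.41 to 3.16 against 1.25 to 2.50 in KO cells. The intervals come from different probes, and the difference between the genes was not tested.

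Cd274 and Pdcd1lg2 are next to each other on chromosome 19 by the order of genes in RefSeq's table, with Plgrkt, a plasminogen receptor gene, before them and Ric1 after them. These flanking genes were chosen by position. Plgrkt read 0.58 ± 0.16 in WT (adjusted p = 0.0781) and 0.46 ± 0.16 in KO cells (adjusted p = 0.15), and Ric1 -0.17 ± 0.15 and 0.07 ± 0.15, none of them called. The promoter windows of the pair are shown because both genes moved with stimulation and share this locus. The sequences are RefSeq's for build GRCm38.p6, 300 bases around the annotated start and mostly before it, 5′ to 3′ on the gene's strand. They were searched on both strands for GAAA followed after 2 bases by GAAA (the core of the interferon-stimulated response element), TTCNNNGAA (the GAS element), TGANTCA (AP-1), the NF-kappa-B consensus and GGAAA (the NFAT core, which can overlap the first of these). Capitals mark matches to any but the NFAT core, which is too common to mark, and Cd274 had none.
Cd274, chr19:29367188-29367487, plus strand: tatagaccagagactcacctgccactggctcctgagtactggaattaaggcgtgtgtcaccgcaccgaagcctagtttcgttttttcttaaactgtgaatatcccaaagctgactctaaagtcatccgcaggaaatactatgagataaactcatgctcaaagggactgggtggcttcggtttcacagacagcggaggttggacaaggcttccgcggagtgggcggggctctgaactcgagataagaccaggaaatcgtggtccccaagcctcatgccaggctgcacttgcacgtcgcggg
Pdcd1lg2, chr19:29410669-29410968, plus strand: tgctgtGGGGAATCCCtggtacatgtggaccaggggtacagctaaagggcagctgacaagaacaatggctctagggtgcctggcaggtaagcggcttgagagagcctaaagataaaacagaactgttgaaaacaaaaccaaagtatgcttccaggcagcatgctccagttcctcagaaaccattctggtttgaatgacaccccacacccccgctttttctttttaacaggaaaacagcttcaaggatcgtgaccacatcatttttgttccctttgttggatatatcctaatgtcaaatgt
Cd160, chr3:96814472-96814771, minus strand: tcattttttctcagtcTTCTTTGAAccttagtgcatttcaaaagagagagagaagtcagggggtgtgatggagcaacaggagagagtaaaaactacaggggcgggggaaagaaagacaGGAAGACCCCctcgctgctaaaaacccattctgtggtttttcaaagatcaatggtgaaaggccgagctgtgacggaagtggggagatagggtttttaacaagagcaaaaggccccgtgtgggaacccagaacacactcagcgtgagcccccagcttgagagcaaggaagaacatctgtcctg

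The capitals in the Pdcd1lg2 window are an NF-kappa-B match that begins at -244, where -1 is the base before the start. The Cd160 window, the second of 2 that RefSeq gives for this receptor gene, is shown because it held matches to 2 of the motifs, GAS at -234 and NF-kappa-B at -132. Windows were available for 8 of the 9 genes. NF-kappa-B matched in 2 of the 8 (5.8% of 32851 mouse promoter windows), GAS in 1 (8.3%), and AP-1 in 1, Havcr2 at -200 (7.81%). The interferon-stimulated element matched in 0 of the 8 (3.44% of all windows). GGAAA matched in 6 of the 8, including Cd274 at -120 and -1, beside 61.3% of all windows. A match is a description of these letters and not a binding site, and the absence of one says nothing of a factor's action elsewhere.

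Btla and Cd160 encode receptors that both bind HVEM, the product of Tnfrsf14, and both genes rose. Btla read 1.88 and 1.62 in WT medium, 1.60 and 1.32 in KO medium, 3.07 and 3.08 in stimulated WT and 2.97 and 3.09 in stimulated KO cells. The 4 stimulated arrays, from 2.97 to 3.09, lay above every medium array. The rise was 1.32 ± 0.15 in WT (2.50-fold, adjusted p = 0.00742) and 1.57 ± 0.15 in KO cells (2.97-fold, adjusted p = 0.00402). Btla is also abundant on B cells. Of 12 B cell genes 1, Fcer2a, was called higher in each genotype on stimulation and 2, Fcmr and Cd79b, were called lower in KO cells, and the median of the list was -0.29 in WT and -0.20 in KO cells. With the KO arrays numbered 2 left out, 0 of the 12 were called in KO cells, and Fcer2a was called higher and Fcmr lower in WT cells. The list's part in the rise of Btla was not tested, and in bulk RNA fewer cells of a type and less RNA per cell cannot be told apart. The Btla call was lost in WT cells without stimulated replicate 1 or 2 (adjusted p = 0.0701 and 0.0640) and when the KO arrays were fitted alone (adjusted p = 0.0709).

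Cd160, a receptor known from natural killer cells and cytotoxic T cells, had the second largest response of the 9 in both genotypes. It read -4.30 and -4.15 in WT medium, -4.51 and -5.07 in KO medium, -2.12 and -2.33 in stimulated WT and -2.26 and -2.03 in stimulated KO cells. The signal was low even when stimulated, 0.214 of the 75th percentile in WT and 0.227 in KO cells (from group means), but stimulated and medium arrays were far apart. The rise was 2.0 ± 0.21 in WT (4.0-fold, interval 2.79 to 5.73, adjusted p = 0.00594) and 2.65 ± 0.21 in KO cells (6.27-fold, interval 4.37 to 8.98, adjusted p = 0.00237). The value depended on how background was treated: with normexp correction of the median signal it was 1.44 and 1.81, both still called. The WT call was lost without WT medium replicate 1 (adjusted p = 0.0613) or WT stimulated replicate 1 (adjusted p = 0.0562), and the KO call when the KO arrays were fitted alone (adjusted p = 0.0622). Beside it, 10 natural killer cell genes had a median of -0.21 in WT and -0.23 in KO cells, with summed levels of 71.6 to 88.6 on WT arrays and 67.6 to 79.5 on KO arrays, in multiples of the 75th percentile. Of these, Eomes and Gzma were called higher, Klrd1 and Klrb1c lower in both genotypes, and Nkg7 higher in WT cells, and without the KO arrays numbered 2 the call left in KO cells was Eomes. Their part in the result was not tested.

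Lag3, a receptor for MHC class II that sits beside Cd4 on chromosome 6, was the weakest of the calls. It read -1.62 and -1.23 in WT medium, -0.86 and -1.07 in KO medium, -0.72 and -0.52 in stimulated WT and -0.26 and -0.07 in stimulated KO cells. The 4 stimulated arrays lay above the 4 medium arrays, with the lowest stimulated value, -0.72 in WT, just above the highest medium value, -0.86 in KO cells. The rise was 0.81 ± 0.18 in WT (1.75-fold, adjusted p = 0.0425) and 0.80 ± 0.18 in KO cells (1.74-fold, adjusted p = 0.0483). The call was lost in both genotypes when any 1 of the 8 arrays was left out (adjusted p between 0.0503 and 0.214 in WT and 0.0546 and 0.199 in KO cells). Without both KO arrays numbered 2 the KO value was 0.60 (adjusted p = 0.285). With median centring it was 0.79 in KO cells (adjusted p = 0.0840). Of 19 alternatives, the call of Lag3 held in 11 in WT and in 5 in KO cells. Its neighbour Cd4, the coreceptor gene, read -0.27 ± 0.22 in WT and -0.48 ± 0.22 in KO cells and was not called (adjusted p = 0.454 and 0.236).

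Ctla4 showed a small step that did not pass. It read 1.96 and 2.16 in WT medium, 2.32 and 2.30 in KO medium, 2.40 and 2.55 in stimulated WT and 2.73 and 2.71 in stimulated KO cells. The difference was 0.41 ± 0.12 in both genotypes, 1.33-fold with a 95% interval of 1.09 to 1.63 in WT (adjusted p = 0.0820) and 1.08 to 1.62 in KO cells (adjusted p = 0.0985). Ctla4 lies between the genes of the costimulatory receptors Cd28 and Icos, chosen here by position. Icos rose by 0.92 ± 0.14 in WT (adjusted p = 0.016) and 1.18 ± 0.14 in KO cells (adjusted p = 0.00803), while Cd28 read -0.53 ± 0.24 and -0.56 ± 0.24 without a call. The KO call of Icos was lost without the KO arrays numbered 2, and Cd28 was called lower in WT cells. In the same locus order, Btla stands beside Cd200, which rose by 1.32 ± 0.22 in WT and 1.71 ± 0.22 in KO cells, the KO call being lost without the KO arrays numbered 2.

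Pdcd1, the receptor for the ligands that rose, was the 1 gene of the 9 with a negative difference. It read 3.64 and 4.06 in WT medium, 4.38 and 4.12 in KO medium, 3.15 and 3.58 in stimulated WT and 4.16 and 3.77 in stimulated KO cells. In WT cells both stimulated arrays lay below both medium arrays, by as little as 0.06, and in KO cells the groups overlapped. The difference was -0.49 ± 0.24 in WT (95% interval -1.07 to 0.09, adjusted p = 0.229) and -0.29 ± 0.24 in KO cells (-0.87 to 0.29, adjusted p = 0.504). The array numbered 2 was higher than that numbered 1 in both WT groups, and lower in both KO groups. At 6 h the upper limits of these intervals for Pdcd1 were 1.07-fold in WT and 1.23-fold in KO cells. They reflect the spread among these arrays only.

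Tigit and Havcr2, the gene of TIM-3, were not called in either genotype. Tigit read 0.97 and 1.45 in WT medium, 1.77 and 1.45 in KO medium, 1.37 and 1.54 in stimulated WT and 1.79 and 1.65 in stimulated KO cells, and its groups overlapped within each genotype. The difference was 0.24 ± 0.20 in WT (interval -0.25 to 0.74, adjusted p = 0.462) and 0.11 ± 0.20 in KO cells (-0.39 to 0.60, adjusted p = 0.790), where it was 0.02 without the KO arrays numbered 2. Havcr2 read -1.46 and -1.79 in WT medium, -1.88 and -1.16 in KO medium, -1.44 and -1.34 in stimulated WT and -1.48 and -0.68 in stimulated KO cells. Its highest values were those of the KO arrays numbered 2. The difference was 0.23 ± 0.34 in WT (interval -0.59 to 1.06, adjusted p = 0.687) and 0.44 ± 0.34 in KO cells (-0.38 to 1.26, adjusted p = 0.470), so that the upper limits of the rise were 2.08-fold and 2.40-fold.

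**Figure D2:**
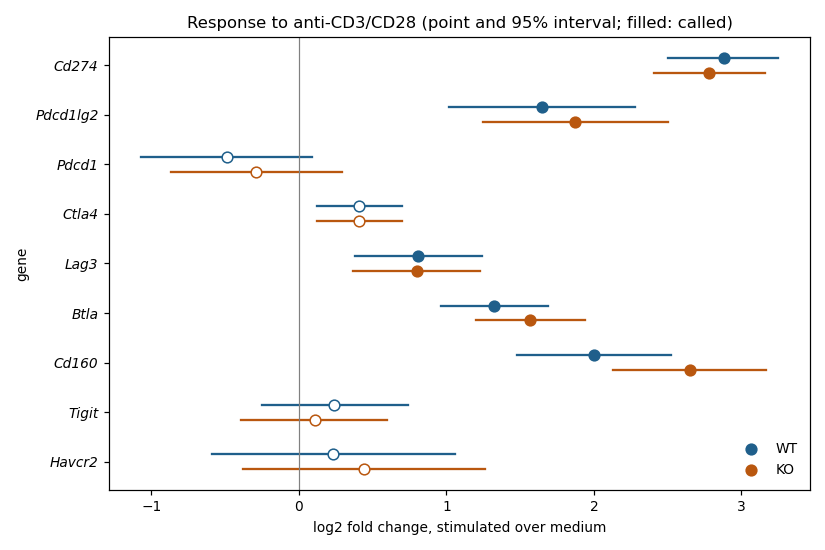
Log2 fold change of stimulated over medium cells (x axis) for each gene (y axis) in WT (blue) and KO cells (orange), with the 95% interval of the limma fit and filled points for called genes. Cd274, Cd160, Pdcd1lg2, Btla and Lag3 are filled in both genotypes, and the intervals of WT and KO overlap for every gene.

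None of the 9 genes was called between genotypes. In medium 2 of the 9 had an unadjusted p below 0.05, Lag3 higher and Cd160 lower in KO cells. After stimulation there were also 2, Lag3 and Pdcd1, both higher in KO cells. Over all genes 5.71% and 5.03% reached that p. For Cd160 in medium KO minus WT was -0.57 ± 0.21 (limma, interval -1.08 to -0.05, adjusted p = 0.736). Its processed signals on the medium arrays were low, from 44 to 81. At the adjusted threshold limma called 0.00661% of all genes in medium and 0.0198% after stimulation. Of the 9, 0 were called in the test of the difference between both stimulation responses, with 0 at an unadjusted p below 0.05 (3.03% of all genes at that p, 0.00661% called). The largest such difference was that of Cd160, 0.65 ± 0.30 larger in KO cells (95% interval -0.09 to 1.38, adjusted p = 1.0), and it was 0.25 without the KO arrays numbered 2. For Cd274 the KO response was -0.09 ± 0.22 relative to WT, with an interval of -0.62 to 0.44. After stimulation Cd274 differed between genotypes by 0.01 ± 0.15, with an interval of 0.778-fold to 1.31-fold.

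Some receptor genes were nevertheless placed in the same order in both conditions, without a call. The conditions may not be independent, since replicate differences of KO medium and KO stimulated arrays correlated by 0.74 over 15114 genes. Pdcd1, Ctla4 and Lag3 were higher on both KO arrays than on both WT arrays in medium and again after stimulation, as were 4.35% of all genes. After stimulation both KO arrays lay above both WT arrays in 4 of the 9 genes, these 3 and Tigit (13.2% of all genes), and in medium in 4, these 3 and Cd274 (12.8%). In medium both KO arrays lay below both WT arrays for Btla and Cd160 (21.4% of all genes). KO minus WT for Lag3 was 0.46 ± 0.18 in medium (interval 0.03 to 0.89, adjusted p = 0.736) and 0.45 ± 0.18 after stimulation (0.02 to 0.88, adjusted p = 0.932). For Pdcd1 it was 0.40 ± 0.24 and 0.60 ± 0.24 (adjusted p = 0.736 and 0.932), and for Ctla4 0.25 ± 0.12 in each condition (adjusted p = 0.736 and 0.932). Tigit gave 0.40 ± 0.20 in medium and 0.26 ± 0.20 after stimulation. All these differences stayed positive in the alternatives run, and no alternative called any of them, but their size moved. For Pdcd1, Ctla4 and Lag3, and for Tigit after stimulation, leaving out arrays could not turn the sign. There both KO arrays lay above both WT arrays. Over the alternatives Lag3 ranged from 0.26 to 0.65 in medium and 0.35 to 0.55 after stimulation, and Pdcd1 from 0.19 to 0.61 and 0.39 to 0.82. Ctla4 ranged from 0.16 to 0.35 and 0.17 to 0.32, and Tigit from 0.16 to 0.65 and 0.18 to 0.35.

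Without the KO arrays numbered 2, KO minus WT in medium was 0.56 for Lag3 and Tigit, 0.53 for Pdcd1, 0.27 for Ctla4, 0.09 for Cd274, -0.15 for Btla, -0.20 for Pdcd1lg2, -0.25 for Havcr2 and -0.28 for Cd160. After stimulation it was 0.80 for Pdcd1, 0.35 for Lag3, 0.33 for Tigit, 0.26 for Ctla4, 0.02 for Cd274, -0.03 for Cd160, -0.09 for Havcr2, -0.11 for Btla and -0.32 for Pdcd1lg2. The difference between responses was then 0.27 for Pdcd1, 0.25 for Cd160, 0.16 for Havcr2, 0.05 for Btla, -0.01 for Ctla4, -0.07 for Cd274, -0.12 for Pdcd1lg2, -0.21 for Lag3 and -0.22 for Tigit. The receptor genes Pdcd1, Ctla4, Lag3 and Tigit thus stayed above 0 in both conditions without these arrays. Apart from Tigit in medium, that sign was fixed by the order of the arrays described above.

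The order of the 4 groups therefore differed between genes. Cd274, Pdcd1lg2, Btla and Cd160 had both stimulated groups on top, and the stimulated genotypes were not told apart (KO minus WT between -0.05 ± 0.15 for Btla and 0.09 ± 0.26 for Pdcd1lg2). Lag3 and Ctla4 ran by group mean from WT medium through KO medium and stimulated WT to stimulated KO cells, with Lag3 means ± SD of -1.42 ± 0.27, -0.97 ± 0.15, -0.62 ± 0.14 and -0.17 ± 0.13, and Ctla4 means of 2.06 ± 0.14, 2.31 ± 0.02, 2.47 ± 0.10 and 2.72 ± 0.01 (n = 2 each). Neighbours in that order differed by no more than 0.46, and none of those tested was called. Pdcd1 ran from 3.36 ± 0.31 in stimulated WT over 3.85 ± 0.30 in WT medium and 3.97 ± 0.28 in stimulated KO to 4.25 ± 0.18 in KO medium (mean ± SD, n = 2), and Tigit from 1.21 ± 0.35 in WT medium to 1.72 ± 0.10 in stimulated KO cells. Havcr2 spanned -1.62 ± 0.23 to -1.08 ± 0.57, no wider than the gaps within its KO groups.

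**Figure D3:**
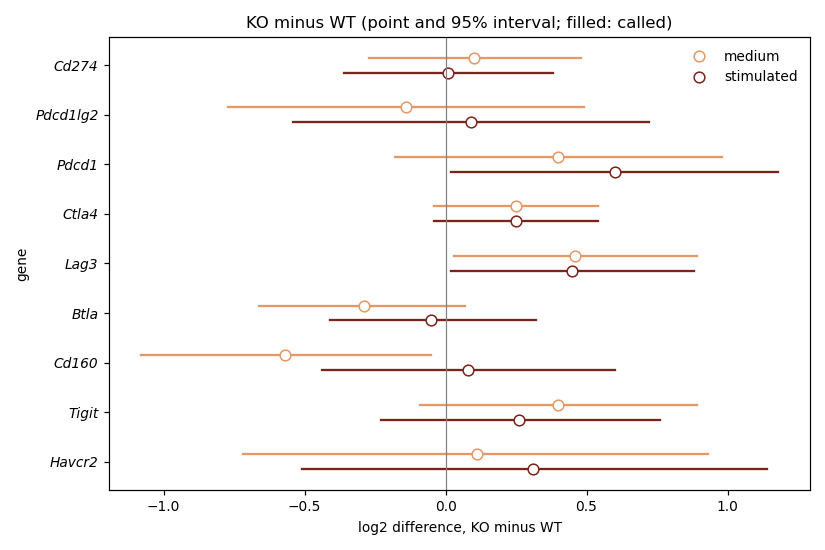
Log2 difference of KO minus WT (x axis) for each gene (y axis) in medium (light) and after stimulation (dark), with the 95% interval of the limma fit and filled points for called genes. No point is filled, and the points of Pdcd1, Ctla4, Lag3 and Tigit lie to the right of 0 in both conditions.

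Marker levels of other cell types differed between arrays. Those of the neutrophil list and of the monocyte, macrophage and dendritic cell list were high on the KO arrays numbered 2 only. On the KO arrays numbered 1 the neutrophil median was -0.39 in medium and -1.16 when stimulated, relative to the WT medium mean. The B cell list was lower in both KO groups. In the KO arrays numbered 2 the summed level of the 10 neutrophil genes was 621 in medium and 370 when stimulated, against 139 to 246 on the other arrays. The 9 measured monocyte, macrophage and dendritic cell genes summed to 37.9 and 29.8 on them, against 21.1 to 27.7. None of the 9 was at 0, and all were well above background on all arrays. Havcr2, which myeloid cells express, was highest on the same arrays, and without both of them KO minus WT for Havcr2 was -0.25 in medium and -0.09 after stimulation, in place of 0.11 ± 0.34 and 0.31 ± 0.34. Pdcd1lg2 after stimulation turned from 0.09 ± 0.26 to -0.32, and its difference between responses from 0.23 ± 0.37 to -0.12. The 12 B cell genes were all lower in KO cells in both conditions, with medians of -0.68 and -0.72 and 0 called (limma), and summed to 32.8 and 34.2 in KO medium against 48.6 and 44.1 in WT medium. Btla was also lower in KO medium, at -0.29 ± 0.15 (adjusted p = 0.736; -0.15 without the KO arrays numbered 2), and read -0.05 ± 0.15 after stimulation (-0.11 without them), where the B cell sums were 21.6 and 20.5 against 41.5 and 34.3. The part of these cells in the genotype values was not tested. On stimulation 0 of the neutrophil and 0 of the monocyte, macrophage and dendritic cell genes were called. Flt3 of the latter list was called lower in WT cells without the KO arrays numbered 2.

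**Figure D4:**
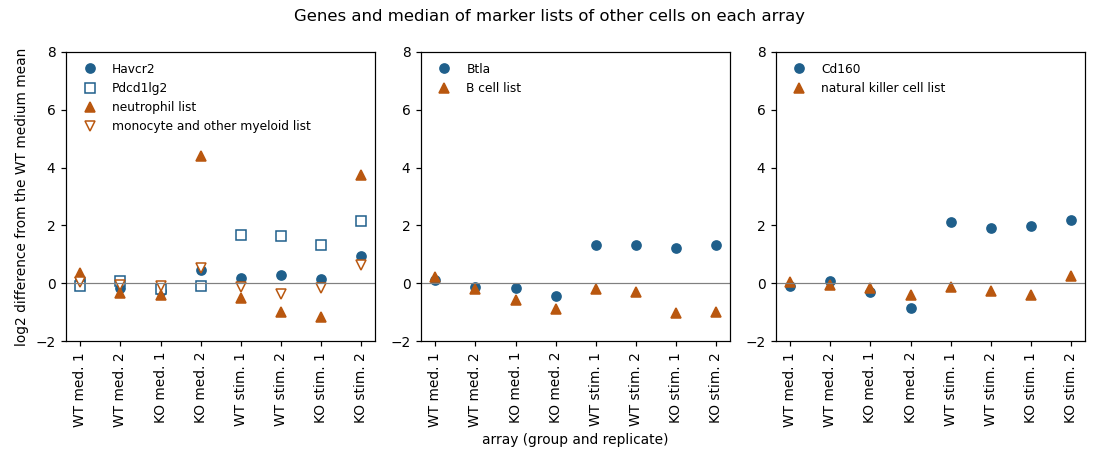
Log2 difference from the WT medium mean (y axis) on each of the 8 arrays (x axis, group and replicate) for Havcr2 and Pdcd1lg2 with the median of the neutrophil and of the monocyte, macrophage and dendritic cell lists, for Btla with the B cell list and for Cd160 with the natural killer cell list. The neutrophil median is 4.41 and 3.75 on the KO arrays numbered 2, where Havcr2 is also highest, and the B cell median lies between -1.01 and -0.56 on the 4 KO arrays.

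Regulatory T cells carry CTLA-4, TIGIT and other members at rest, and 9 genes of a regulatory T cell list were measured. Of these 4 were called higher in each genotype and 0 lower, with a median of 0.71 in WT and 0.61 in KO cells. Il2ra, the high-affinity IL-2 receptor chain, rose by 3.36 ± 0.24 in WT and 4.03 ± 0.24 in KO cells, and Foxp3, the lineage factor, by 1.31 ± 0.13 and 1.48 ± 0.13. Tnfrsf4 and Tnfrsf18, which encode OX40 and GITR, also rose. Nrp1 read -0.63 ± 0.17 in WT and -0.50 ± 0.17 in KO cells, and Ikzf2 -0.05 ± 0.17 and 0.13 ± 0.17, without a call. By sign, 7 genes of the list were positive in WT and 8 in KO cells. Il2ra, Tnfrsf4 and Tnfrsf18 are known to rise on conventional T cells after activation too. The KO call of Tnfrsf18 was lost without the KO arrays numbered 2, and 5 genes of the list were called higher in WT cells. Summed over the list, levels were 109 to 128 on medium and 237 to 292 on stimulated arrays. The part of regulatory T cells in these values was not tested.

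Ligands of the other receptors changed in part. Of 10 measured ligand genes other than Cd274 and Pdcd1lg2, 2 were called higher in WT cells and 0 lower, and in KO cells 2 higher and 1 lower, with medians of -0.04 and -0.08 (6.42% and 5.85% of all genes were called higher). Lgals9, the gene of galectin-9, a ligand of TIM-3, rose by 0.99 ± 0.22 in WT and 0.97 ± 0.22 in KO cells. Cd86, a ligand of CTLA-4 and CD28, rose by 0.96 ± 0.18 and 1.01 ± 0.18. Hmgb1, a nuclear protein that TIM-3 can bind, fell by 0.60 ± 0.12 in KO cells (adjusted p = 0.0334). Without the KO arrays numbered 2 the ligand genes called in KO cells were 0, and in WT cells 3 were called higher.

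Among other coinhibitory genes, of 10 measured, 1 was called higher and 2 lower in WT and 1 higher and 0 lower in KO cells, with medians of -0.17 and -0.09. Cd200, the ligand of the inhibitory receptor CD200R, was the one that rose. Klrg1, a receptor of effector and natural killer cells, fell by 0.82 ± 0.17 in WT cells (adjusted p = 0.0398) and read -0.75 ± 0.17 in KO cells (adjusted p = 0.0552). Vsir, the gene of VISTA, fell by 0.77 ± 0.18 in WT cells (adjusted p = 0.0491) and read -0.49 ± 0.18 in KO cells (adjusted p = 0.157). Without the KO arrays numbered 2, 0 of these 10 were called in KO cells.

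Most costimulatory counterparts read higher with stimulation. By sign, 11 of 15 genes were positive in each genotype and 4 negative, Cd27 and Cd28 among them. Of the 15 genes 7 were called higher in WT and 8 in KO cells, beside 6.42% and 5.85% of all genes. None was called lower, and the medians were 0.71 and 0.82. Cd70, the ligand of CD27, rose by 3.31 ± 0.32 in WT and 3.32 ± 0.32 in KO cells. Tnfsf14, which encodes LIGHT and shares HVEM with BTLA and CD160, rose by 3.11 ± 0.23 and 3.35 ± 0.23, and Tnfrsf4 by 1.35 ± 0.17 and 1.64 ± 0.17. Icos was the fourth by size among the genes called in WT cells. Without the KO arrays numbered 2, 4 genes of this list were called higher and 0 lower in KO cells, and 8 higher and 2 lower, Cd27 and Cd28, in WT cells.

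Of 17 genes that carry the signal of coinhibitory receptors, 1 was called higher in each genotype, close to the share over all genes (6.42% and 5.85%), and 0 lower, with medians of -0.13 and -0.18. That gene was Ptpn6, which encodes the phosphatase SHP-1, at 1.37 ± 0.14 in WT (adjusted p = 0.00583) and 1.31 ± 0.14 in KO cells (adjusted p = 0.00654). Dgka and Sh2d1a were also called lower in WT cells without the KO arrays numbered 2. Of 11 genes for the trafficking and cleavage of PD-1, CTLA-4, LAG-3 and PD-L1, 1 was called, higher in both genotypes. It was Trat1, which encodes TRIM, an adaptor that brings CTLA-4 to the cell surface, at 2.83 ± 0.28 in WT and 2.63 ± 0.28 in KO cells.

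The pathway from interferon-gamma to Cd274 had 5 of 10 genes called higher in WT and 6 in KO cells, 0 lower, with medians of 0.58 and 0.63. Ifng rose by 5.25 ± 0.53 in WT and 5.26 ± 0.53 in KO cells. The transcription factor genes Irf1 (1.67 ± 0.16 and 1.71 ± 0.16) and Irf9 (0.83 ± 0.13 and 0.61 ± 0.13) rose. Without the KO arrays numbered 2, 7 genes of this list were called in WT and 3 in KO cells, where the call of Irf9 was lost. Among 18 transcription factor genes linked to coinhibitory receptors, 7 were called higher in each genotype and 1 lower in WT cells, Id3 at -0.96 ± 0.17, with medians of 0.27 and 0.18. Irf4 rose by 4.02 ± 0.14 in WT and 4.07 ± 0.14 in KO cells, and Nr4a1, an immediate early gene of receptor signalling, by 2.59 ± 0.21 and 3.33 ± 0.21. Tbx21, the gene of T-bet, rose by 1.89 ± 0.23 and 2.22 ± 0.23, and Eomes by 1.78 ± 0.14 and 1.53 ± 0.14. When the KO arrays numbered 2 were left out, 5 genes of this list were called in KO cells, with the calls of Tbx21 and Batf lost, and in WT cells Tcf7 was called lower beside Id3.

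**Figure D5:**
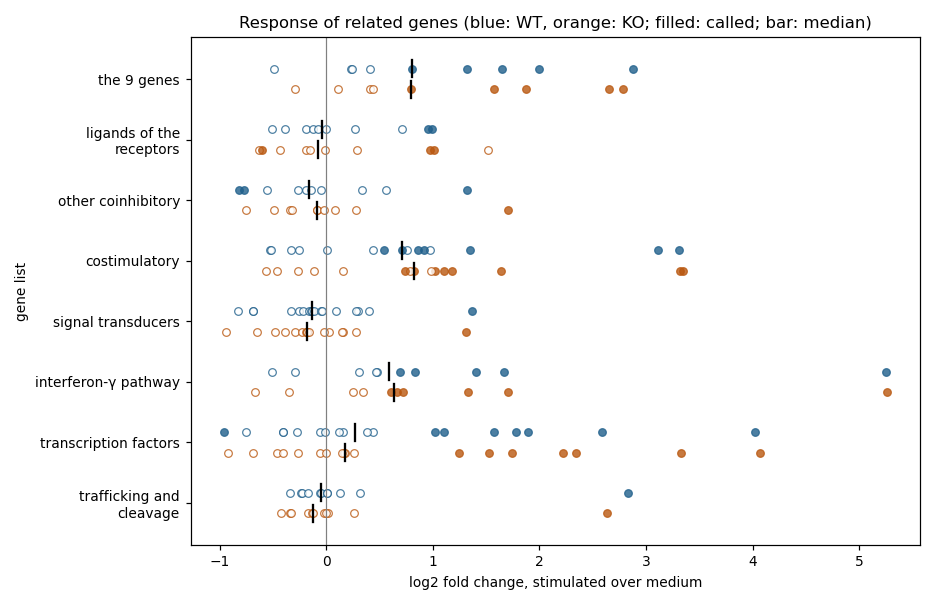
Log2 fold change of stimulated over medium cells (x axis) for the 9 genes and for 7 lists of related genes (y axis), with WT in blue, KO in orange, filled points for called genes and a bar at the median. The 9 genes, the costimulatory genes and the interferon-gamma pathway have medians of 0.58 or higher in both genotypes, while the signal transducers and the trafficking genes each have 1 called gene.

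For each of the 9, the 3 genes with the most similar profile over the 8 arrays were taken by the root mean square difference of profiles centred on their own means. Nearest to Cd274 were Gbp7 (0.087), which encodes an interferon-induced guanylate-binding protein, Olfr576 (0.127), an olfactory receptor gene, and Tgtp1 (0.136), an interferon-induced GTPase gene. Nearest to Pdcd1lg2 were the nucleolar genes Gnl3 (0.098), Nolc1 (0.104) and Nop16 (0.122). Btla lay closest to Prag1 (0.071), Nfkbiz (0.103) and Stat2 (0.111), and Cd160 to Ccnd2 (0.190), which encodes cyclin D2, Lta (0.206) and Pcsk4 (0.215). The distances of Cd160 were the largest of the 9, beside an SD of 1.27 over the arrays. Lag3 was closest to Hsh2d, Synpo and Cnih2 (0.115 to 0.134), Ctla4 to Hnrnpc, Ywhaz and Abcc1 (0.062 to 0.079) and Pdcd1 to Slc22a15, Rundc3a and Abcc3 (0.091 to 0.109). Tigit was closest to the transcription factor gene Maf (0.092), Dnaaf1 and Bhlhb9 (0.095 each), and Havcr2 to Stbd1, Hmgn3 and Camkk2 (0.080 to 0.102). Small distances for genes that hardly vary, such as Ctla4 and Tigit with an SD of 0.26, reflect small profiles, and 8 arrays in 4 groups give many genes of like shape.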

How the data were processed

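Intensity per spot was deposited by the authors as scanner output of Agilent Feature Extraction 10.7.1.1 (build mm9), per the file headers; the processed signal is background-subtracted by that program and not normalized between arrays. All 8 arrays share 1 slide and 1 scan, with medium and stimulated arrays in different rows and the genotypes in different columns, so that the groups cannot be told apart from array position. The series table, also deposited, is the median spot intensity, linear and not centred, and served as an alternative.

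Processed intensity was put on the log2 scale minus the array's 75th percentile over non-control spots (1200 to 1469). Of 55681 probes, 37255 exceeded background clearly (the scanner's flag) on both arrays of some group, and named through RefSeq accessions (table GRCm38.p6) they gave 15138 genes, the brightest probe each. By array, 58.4% to 69.2% of probes carried that flag; the number of arrays limits the precision. limma 3.58.1 in R 4.3.3 fitted 4 group means, with 4 residual and 2.11 prior degrees of freedom, since an exact permutation test of 2 against 2 arrays cannot go below p = 0.333. The fit was tested on simulated data with independent noise of equal spread in every group. That setting lacks the wider spread of the KO arrays and the likeness of KO arrays with the same number. The p-values were not checked for either.

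The 9 genes and the gene lists were chosen with earlier results of these data known. Named besides the 9 are up to 4 called genes per related list, those with the largest WT change, Lsp1, the 3 nearest profiles, and defining markers; genes beside the 9 on the chromosome, and listed genes whose call changed in an alternative, were added after their values were seen. Of the listed genes, those absent from the array or dim were left out. The files lack the mean signal, so normexp (offset 50) used the median signal. The values of 1 gene of the interferon-gamma list are not reported here.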

Additional observations from a re-analysis of the deposited data

How the results depend on the processing

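Between 18 and 19 alternatives were run for each gene and comparison. The number of the 9 genes called on stimulation was 5 in each genotype in the main fit. In KO cells it was 4, without Lag3, with quantile normalization, with median centring and without the filter on dim probes. Leaving out 1 array at a time gave 1 to 4 in WT and 3 to 4 in KO cells, and fitting only the KO arrays gave 1, Cd274. Without WT stimulated replicate 1 the WT call left was also Cd274. The labels tie the replicate numbers to no animal, batch or day, and no main result is paired. The KO arrays numbered 2 were nevertheless alike in medium and stimulated, as in their neutrophil signal. Genotype differences in medium and after stimulation may therefore not be independent. Replicate differences of medium and stimulated arrays correlated by 0.16 in WT and 0.74 in KO cells over 15114 genes, and between genotypes by -0.06 in medium and -0.24 after stimulation. With the replicate block within genotype 7 genes were called in WT cells (Ctla4 0.41, adjusted p = 0.0445; Pdcd1 -0.49, adjusted p = 0.0338) and 5 in KO cells; the block over all groups gave 5 and 4, and no other call of the 9 changed except Lag3 in KO cells (adjusted p = 0.0548). In the related and regulatory T cell lists the block within genotype added higher calls of Ebi3 in both genotypes, Tnfsf4 in WT and Nectin2 in KO cells, and lower calls of Cd27, Cd28, Dgka, Sh2d1a, Jak1 and Tcf7 in both genotypes, Nrp1 in WT cells, and Id3, Klrg1 and Fgl1 in KO cells. It also called 6 neutrophil genes lower in each genotype, 2 and 1 of the monocyte, macrophage and dendritic cell list lower in WT and KO cells, 3 T cell genes in each genotype in either direction, the B cell genes Ebf1 and Fcmr lower in WT cells, and of the natural killer cell list Ncr1 higher and Tyrobp lower in KO cells. Crossing the replicate numbers between genotypes, an alternative chosen after seeing the data, left 0 of the 9 called in medium and after stimulation. No alternative called any of the 9 between genotypes or for the difference between responses (limma). The counts over all genes moved more. In WT cells 972 higher and 581 lower became 164 to 1010 and 30 to 743 with 1 array left out, 1287 and 1426 with only the WT arrays fitted or both KO arrays numbered 2 left out, 2323 and 680 without the filter, 1006 and 381 with median centring, and 1463 and 2059 with the replicate block within genotype. In KO cells 886 higher and 344 lower became 295 to 957 and 71 to 525 with 1 array left out, 337 and 99 without both KO arrays numbered 2, 656 and 177 without the filter, 1104 and 527 with an intensity trend, 1353 and 1423 with the replicate block within genotype, and 37 and 1 with only the KO arrays fitted.

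Signs turned for values near 0, and the cause was not tested. KO minus WT after stimulation: Cd274 -0.01 with median centring; without both KO arrays numbered 2, Cd160 -0.03, Havcr2 -0.09 and Pdcd1lg2 -0.32, and in medium Havcr2 -0.25. Difference between responses: Ctla4 0.04 with the value table, 0.04 with normexp and 0.00 with quantile normalization; Lag3 0.02 with the value table and 0.03 with normexp; Pdcd1lg2 -0.12 without both KO arrays numbered 2. Leaving out 1 array at a time, KO minus WT after stimulation ranged from -0.11 to 0.02 for Btla, -0.03 to 0.20 for Cd160, -0.20 to 0.22 for Cd274, -0.09 to 0.71 for Havcr2 and -0.32 to 0.49 for Pdcd1lg2, and in medium from -0.25 to 0.47 for Havcr2. The difference between responses ranged from -0.30 to 0.12 for Cd274, -0.10 to 0.09 for Ctla4, -0.20 to 0.61 for Havcr2, -0.20 to 0.18 for Lag3, -0.01 to 0.42 for Pdcd1, -0.18 to 0.63 for Pdcd1lg2 and -0.38 to 0.11 for Tigit, and the response of Tigit from -0.00 to 0.49 in WT and -0.05 to 0.26 in KO cells. Of all values of single genes, 772 kept direction and side of the threshold, 35 kept direction but lost a call, 2 gained one and 37 changed sign. Other probes could not be tried, since each of the 9 has 1.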
